A study of Homo sapiens with 8 samples.

Results

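Small nucleolar RNAs (snoRNAs), small Cajal body RNAs (scaRNAs) and the RNA subunits of RNase MRP and RNase P are short RNAs without a poly(A) tail. Box C/D snoRNAs (SNORD) guide 2′-O-methylation of ribosomal and spliceosomal RNA with the proteins FBL, NOP56, NOP58 and SNU13, and box H/ACA snoRNAs (SNORA) guide pseudouridylation with DKC1, GAR1, NHP2 and NOP10. Most human snoRNAs lie in introns of host genes and are trimmed from the spliced-out intron, whereas RMRP and RPPH1 are transcribed from promoters of their own. UPF1, the RNA helicase of nonsense-mediated mRNA decay, acts on mature transcripts, and several non-coding host genes whose introns carry snoRNAs, such as GAS5, are known targets of that decay.

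The members described here were chosen by symbol (names starting with SNORD, SNORA or SCARNA, and RMRP and RPPH1) and by a mean of at least 0.5 FPKM over all 8 libraries. FPKM is a level scaled to transcript length and library size. Of 284 entries with these names, 227 members passed, among 17076 genes in all. They were 137 SNORD, 77 SNORA and 11 SCARNA entries with RMRP and RPPH1, and 57 entries fell below the limit. The level itself is therefore not a finding. Just inside the limit were SNORD41 at a mean of 0.505 and SCARNA16 at 0.509 FPKM, and just outside it were SNORA74D at 0.494 and SNORD66 at 0.491 FPKM.

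The libraries came from Huh7, a human hepatocellular carcinoma cell line, in 4 groups of 2 libraries, from cells transfected with a scrambled siRNA (siControl), an siRNA against UPF1 (siUPF1), the empty MYC vector (MYC) or a vector for MYC-tagged UPF1 (MYC-UPF1). UPF1 depletion was read as siUPF1 against siControl and UPF1 overexpression as MYC-UPF1 against MYC, so the comparisons share no library. No source states that the 2 libraries of a group came from separate cultures, so the p-values may measure technical spread only. The kit selects poly(A) RNA, the read length was 100 bases and the depth of each library is unknown.

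Huh7 markers were high in all libraries, with ALB, AFP and the other 6 hepatoma markers summing to between 19941 and 23400 FPKM. Of 6 markers of blood, stromal and endothelial cells, 4 were not in the table and COL3A1 and PECAM1 summed to between 0.886 and 1.22 FPKM. UPF1 was at 44.5 and 47.4 FPKM in siControl and 20.7 and 21.9 FPKM in siUPF1. It was at 45.1 and 57.4 FPKM in MYC, and log2(FPKM + 1) rose by 5.68 in MYC-UPF1 (SE 0.11, adjusted p = 8.91e-09, limma).

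The RefSeq sequences of the members were short, with a median of 95 bases (48 to 421), and 121 of 227 were shorter than 100 bases, the length of 1 read. RefSeq places 222 members inside the span of 120 host genes: 55 in ribosomal protein genes, 111 in other protein-coding genes and 56 in non-coding genes. Host spans carry no strand in that table. The 5 without a host were RMRP, RPPH1, SNORD3A, SCARNA2 and SNORA50C. On GRCh37, the assembly also called hg19, 131 members could be placed. Of these, 84 overlapped an exon of at least 1 transcript of the host, 46 lay in an intron of every transcript that spans them, and RMRP had no host.

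The sequences below are those of the box C/D RNAs of 2 ribosomal protein genes whose members differed from one another, with the H/ACA RNA of the largest rise and RMRP. They are read 5′ to 3′ from the strand of each gene on GRCh37. Capitals mark TGATG, the core of the C box, within the first 20 bases, CTGA, the D box, within the last 20, and ACA within the last 8 bases of the H/ACA RNA. RPL23A on chromosome 17 carries SNORD4A (chr17:27049600-27049671, plus strand), in an intron of all 9 host transcripts that span it. It also carries SNORD4B (chr17:27050700-27050771), SNORD42A (chr17:27050447-27050510) and SNORD42B (chr17:27047568-27047634), each overlapping an exon of 1 of 9 host transcripts. RPS13 on the minus strand of chromosome 11 carries SNORD14A (chr11:17096201-17096291), in introns only, and SNORD14B (chr11:17097326-17097415), which overlaps an exon of 1 of 10 host transcripts. SNORA2A (chr12:49050431-49050565, minus strand) is in an intron of KANSL2, and RMRP is at chr9:35657751-35658014 on the minus strand.
SNORD4A: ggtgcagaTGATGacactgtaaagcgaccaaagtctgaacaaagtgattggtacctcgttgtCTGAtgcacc
SNORD4B: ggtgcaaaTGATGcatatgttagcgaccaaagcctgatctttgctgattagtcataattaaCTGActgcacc
SNORD42A: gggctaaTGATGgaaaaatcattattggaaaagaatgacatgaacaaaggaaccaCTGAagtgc
SNORD42B: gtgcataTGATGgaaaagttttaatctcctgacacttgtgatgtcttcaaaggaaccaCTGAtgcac
SNORD14A: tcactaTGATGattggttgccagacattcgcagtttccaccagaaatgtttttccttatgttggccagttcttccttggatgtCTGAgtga
SNORD14B: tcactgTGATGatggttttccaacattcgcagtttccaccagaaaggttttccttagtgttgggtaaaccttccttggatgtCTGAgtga
SNORA2A: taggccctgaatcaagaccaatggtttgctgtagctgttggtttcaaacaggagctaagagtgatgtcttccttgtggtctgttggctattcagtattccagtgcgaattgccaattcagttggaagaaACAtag
RMRP: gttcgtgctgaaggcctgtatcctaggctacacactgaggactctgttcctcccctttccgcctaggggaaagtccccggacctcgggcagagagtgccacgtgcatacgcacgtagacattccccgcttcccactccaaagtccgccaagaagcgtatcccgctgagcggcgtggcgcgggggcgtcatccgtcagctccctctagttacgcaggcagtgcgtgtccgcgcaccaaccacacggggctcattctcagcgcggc

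SNORD4A and SNORD4B were identical over 72.2% of positions and SNORD42A and SNORD42B over 64.2%. Searched on the strand of the gene only, TGATG was present in the first 20 bases of 75 of 81 placed SNORD members (92.6%) and in 6.17% of the regions of the same length directly upstream. CTGA was present in the last 20 bases of 97.5% of them, against 8.64% of the upstream regions. ACA was present in the last 8 bases of 38 of 44 placed SNORA members (86.4%), against 6.82% of their upstream regions. These letters describe the entries as box C/D and H/ACA RNAs and say nothing of what was sequenced.

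The members' FPKM summed to between 1647 and 1943 per library and their mean levels had a median of 3.77 FPKM, with 54 of 227 at 10 FPKM or more. FPKM is a level per length, and the ranking given here is of FPKM values only. The kit selects poly(A) RNA, and 121 of 227 members were shorter than the read length of 100 bases. The order of the mature RNAs in the cells therefore cannot be read from this ranking. The members highest in FPKM were box C/D RNAs of 2 non-coding host genes. In GAS5, SNORD47 was at 86.3 and 111 FPKM in siControl, 78.3 and 66.2 in siUPF1, 68.6 and 69.7 in MYC and 74.3 and 80.5 in MYC-UPF1. SNORD79 of the same gene was at 53.0 and 69.5 FPKM in siControl, 51.1 and 48.7 in siUPF1, 50.3 and 47.7 in MYC and 51.1 and 46.6 in MYC-UPF1. SNORD80, also in GAS5, had 53.0 and 57.9 FPKM in siControl, 51.4 and 30.3 in siUPF1, 52.9 and 52.1 in MYC and 47.0 and 51.7 in MYC-UPF1. SNORD47 was above SNORD79 and SNORD80 in every library, and the latter overlapped each other. In SNHG1, SNORD29 was at 36.6 to 48.7 FPKM and SNORD22 at 36.3 to 58.2 FPKM over the 8 libraries, and their ranges overlapped. SNORA70 in RPL10 was the highest H/ACA member at a mean of 30.6 FPKM, and SCARNA12 in PHB2 the highest scaRNA at 25.6 FPKM, with the other 10 scaRNAs under 5 FPKM.

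In these libraries, whose kit selects poly(A) RNA, the FPKM of most members was far below that of the host gene. Whether the mature RNAs were scarcer than their hosts in the cells cannot be read from these values. Over 219 members with a host in the table (117 hosts), the median member stood at 4.27% of its host's mean FPKM, and 3 members exceeded it: SNORA57, SNORD93 and SNORD104. SNORD104 was at 38.4 FPKM while its host SNHG25 was at 10.3 FPKM. Members overlapping an exon of a host transcript had a median of 5.73 FPKM (84 members) and those in introns only 2.18 FPKM (46 members). Whether reads from an exon of the host were counted for the member was not tested. In log2(FPKM + 1), the mean levels of members and hosts correlated with r = 0.39 across the 219 pairs, which share libraries and hosts.

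Members varied more between replicates than other genes did. The median SD of log2(FPKM + 1) between the 2 libraries of a group was 0.18 for members against 0.06 for all genes at 0.5 FPKM or more in siControl. The same pair of values was 0.18 and 0.10 in siUPF1, 0.14 and 0.10 in MYC, and 0.14 and 0.08 in MYC-UPF1. Among genes between the members' quartiles of mean level (1.65 and 9.29 FPKM), the members' SD was 0.16 to 0.21 in the 4 groups and that of the other genes 0.06 to 0.10. The test used here takes the spread expected at each level from all genes, so a fit in which the spread is taken from small RNA entries alone (members and microRNA genes) is given beside the total counts, with the members it calls.

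Members without a host differed most between the replicates of siControl and siUPF1 by their median SD (1.08 and 0.58, against 0.17 and 0.17 for those with a host), while in MYC-UPF1 none of the 5 differed by more than 2-fold, against 19 of 222 with a host. RMRP, the RNA of the RNase that cuts pre-ribosomal RNA, was at 27.9 and 3.43 FPKM in siControl, 11.0 and 26.6 in siUPF1, 2.26 and 1.24 in MYC and 0.389 and 0.736 in MYC-UPF1. RPPH1, the RNA of RNase P, which cuts the 5′ leader of tRNA precursors, was at 9.34 and 1.13 FPKM in siControl, 2.79 and 5.65 in siUPF1, 0.889 and 0.392 in MYC and 0.860 and 0.556 in MYC-UPF1. SNORD3A, the U3 RNA needed for pre-ribosomal RNA processing, was at 5.83 and 1.38 FPKM in siControl, 2.42 and 9.16 in siUPF1, 0.452 and 0.131 in MYC and 0.804 and 0.567 in MYC-UPF1. In each of these RNAs, siControl replicate 1 and siUPF1 replicate 2 were high and the MYC and MYC-UPF1 libraries were low, and siControl and siUPF1 overlapped. SCARNA2 was also highest in those libraries, at 1.91 and 0.235 FPKM in siControl and 0.687 and 1.09 in siUPF1. SNORA50C did not, at 4.18 and 3.41 FPKM in siControl and 2.19 and 2.69 in siUPF1.

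Other values moved with these. The replicates of siControl differed by more than 2-fold in 4 of the 5 members without a host, with a highest fold of 8.24, and in 24 of the 222 with a host. RN7SK, a nuclear RNA that is no member and also ends without poly(A), was at 61.1 and 7.21 FPKM in siControl, 17.7 and 30.7 in siUPF1, 3.77 and 1.58 in MYC and 2.85 and 2.78 in MYC-UPF1. Of 24 RNAs without poly(A) on a list of spliceosomal, 7SK, 7SL and similar RNAs, 7 were in the table and they summed to 376, 39.2, 104 and 223 FPKM in siControl 1 and 2 and siUPF1 1 and 2. In MYC 1 and 2 and MYC-UPF1 1 and 2 they summed to 101, 109, 74.5 and 151 FPKM, not the lowest values as for RMRP. RN7SL1 and RN7SL2 made up most of the sum, and RNU11 and RNU6ATAC, both under 1 FPKM, were in another order. The summed level of 52 replication histone genes, whose mRNA also lacks poly(A), was 591 and 567 FPKM in siControl and 529 and 436 FPKM in siUPF1 and did not follow that order. The part of these differences between libraries in the results was not tested. In bulk RNA, fewer cells with an RNA and less of it per cell cannot be told apart.

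**Figure D1:**
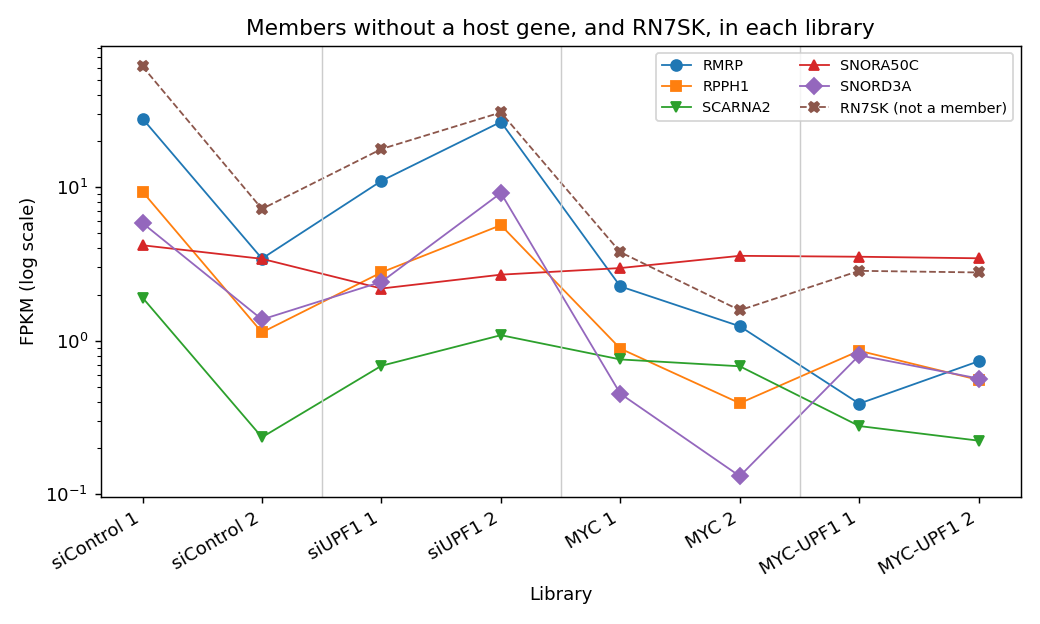
FPKM on a log axis (y) of the 5 members without a host gene and of RN7SK in each of the 8 libraries (x), 1 point per library. RMRP, RPPH1, SNORD3A and SCARNA2 are high in siControl 1 and siUPF1 2 with RN7SK, whereas SNORA50C stays between 2.19 and 4.18 FPKM.

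RMRP, RPPH1, SNORD3A and SCARNA2 did not pass the test in UPF1 depletion, and SNORA50C fell by 0.48 on the log2 scale (SE 0.12, unadjusted p = 0.00616, adjusted p = 0.12, limma), a call not made with the spread of small RNA entries described below. RMRP differed by 0.68 in log2(FPKM + 1) (SE 0.80, adjusted p = 0.63, limma), RPPH1 by 0.10 (SE 0.65, adjusted p = 0.94, limma) and SNORD3A by 0.55 (SE 0.59, adjusted p = 0.61, limma). For RMRP the value ran from -0.67 to 2.04 as each library was left out, with opposite signs without siControl replicate 1 (2.04, unadjusted p = 7.08e-09, limma) and without siControl replicate 2 (-0.67, unadjusted p = 0.0147, limma). RPPH1 likewise gave 1.23 (unadjusted p = 2.51e-06, limma) and -1.04 (unadjusted p = 4.14e-05, limma), so no direction can be given for either. With overexpression RMRP fell by 0.80 on the log2 scale (SE 0.18, unadjusted p = 0.00132, adjusted p = 0.94, limma), with both MYC-UPF1 libraries below both MYC libraries. The call was lost when all 8 libraries shared 1 fit (unadjusted p = 0.265 in limma), in which the spread within siControl and siUPF1 enters. Without MYC replicate 1 the fall was 0.53 on the log2 scale (log2 difference -0.53). RPPH1 differed by 0.07 in this comparison (SE 0.15, adjusted p = 1.00, limma), and SNORD3A and SCARNA2 were under the test's minimum of 0.5 FPKM over 4 libraries.

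Across the members, UPF1 depletion was accompanied by small changes in both directions. All 227 were tested. At an unadjusted p under 0.05, 18 rose (7.93%), where 16.0% of the 13535 genes tested rose, and 28 fell (12.3%), where 5.51% of all genes fell. No member passed an adjusted p of 0.05, which 0.0369% of genes did. Some other fits gave adjusted calls: 3 of 96 with a minimum of 5 FPKM, 6 with all 8 libraries in 1 fit and 2 with crossed pairing. So did each fit in which a library was left out. The share of all genes passing an adjusted p in these fits is not given here. These calls are therefore no result about the members. The split was 10 and 40 after quantile normalization (22.0% called, against 20.9% of all genes) and 12 and 33 after median centring (19.8%, against 21.2%). Without siUPF1 replicate 1 the calls at an unadjusted p numbered 124 (54.6%, against 43.6% of all genes in that fit), and without siUPF1 replicate 2 they numbered 98 (43.2%, against 21.6%). With the spread taken from small RNA entries alone, 2 members rose (SNORD14A and SNORA2A) and 8 fell (SNORD4B, SNORD12, SNORD47, SNORD74, SNORD80, SNORD81, SNORA8 and SNORA72) at an unadjusted p under 0.05 and none at an adjusted one. These 10 are 4.41% of the members, against 6.27% of all 399 entries in that fit. SNORA2A entered the test through the siUPF1 libraries, where it was high, so its rise is a value only. With the spread of all genes SNORD80 was not called (unadjusted p = 0.0671, limma), and its log2 difference of -0.48 became -0.11 without siUPF1 replicate 2. Both siUPF1 libraries lay above both siControl libraries in 35 members (15.4%, against 37.5% of all genes) and below them in 51 (22.5%, against 18.5%). The members' median log2 fold change was -0.05, while that of all genes tested was 0.06.

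Among the classes, 11 of 137 SNORD members rose and 16 fell, 6 of 77 SNORA members rose and 11 fell, and SCARNA15 rose and SCARNA4 fell among 11 scaRNAs. Of all genes tested, 16.0% rose and 5.51% fell, and 37.5% lay above and 18.5% below both controls. By host, 2 of 56 members in non-coding genes rose and 11 fell, with a median of -0.11 and with 20 below and 4 above their controls. With the spread of small RNA entries, those called in non-coding genes were SNORD12 of ZFAS1 and SNORD47, SNORD74, SNORD80 and SNORD81 of GAS5. In ribosomal protein genes 3 of 55 rose and 5 fell (median -0.05), and in other protein-coding genes 13 of 111 rose and 11 fell (median 0.04). Members placed in an exon of a host transcript rose in 3 of 84 and fell in 7, and those in introns only rose in 7 of 46 and fell in 5. Side by side, 28 of 153 tested entries of microRNA genes rose and 8 fell, with a median of 0.22. No difference between these classes was tested.

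**Figure D2:**
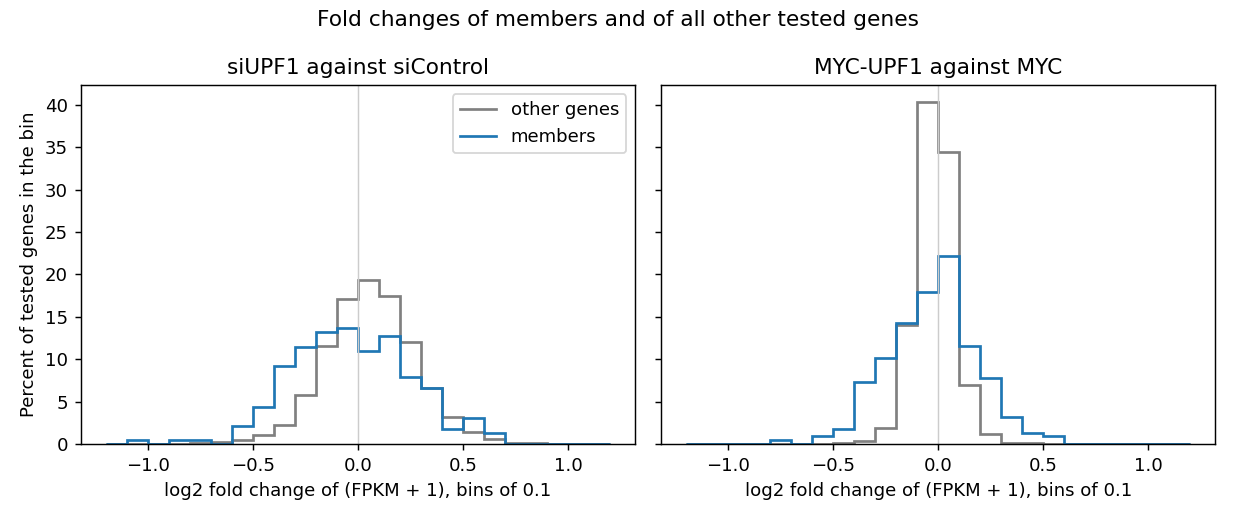
Percent of tested genes (y) in each 0.1 bin of the log2 fold change of FPKM + 1 (x), for members (blue) and all other tested genes (grey), with values past the axis in the end bins. In siUPF1 against siControl the medians of members and of all genes are -0.05 and 0.06, and in MYC-UPF1 against MYC the members spread more widely around 0 than the other genes.

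The largest fall was SNORD4B of RPL23A, which guides 2′-O-methylation of ribosomal RNA. It was at 4.54 and 3.91 FPKM in siControl, 1.28 and 1.79 in siUPF1, 2.57 and 5.39 in MYC and 4.28 and 4.11 in MYC-UPF1. Both siUPF1 libraries were the lowest of all 8. It fell by 1.05 on the log2 scale (SE 0.13, unadjusted p = 8.18e-05, adjusted p = 0.058, limma), and by the same amount at unadjusted p = 0.00248 with the spread of small RNA entries. The other RNAs of the same host did not pass the test in depletion. SNORD4A was at 13.4 and 14.7 FPKM in siControl and 12.8 and 16.8 in siUPF1 (log2 difference 0.06, adjusted p = 0.83, limma). SNORD42A was at 1.55 and 2.38 FPKM and then 1.49 and 2.15, and SNORD42B at 3.42 and 1.89 FPKM and then 1.37 and 2.15, both with overlapping groups. RPL23A itself was at 749 and 735 FPKM in siControl and 696 and 629 in siUPF1 (log2 difference -0.16, adjusted p = 0.36, limma).

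SNORA72 of RPL30 was at 2.58 and 2.44 FPKM in siControl, 0.863 and 1.08 in siUPF1, 1.16 and 0.904 in MYC and 1.26 and 0.852 in MYC-UPF1. It fell by 0.84 on the log2 scale in depletion (SE 0.10, adjusted p = 0.058, limma). Its siUPF1 values lay within the range of the MYC and MYC-UPF1 libraries, and only the siControl libraries were high. RPL30 was at 536 and 512 FPKM in siControl and 505 and 382 in siUPF1. SNORD12 of ZFAS1 was at 7.22 and 5.31 FPKM in siControl and 4.6 and 3.18 in siUPF1 and fell by 0.58 on the log2 scale (SE 0.18, unadjusted p = 0.014, adjusted p = 0.15, limma), a call lost without siControl replicate 1 (unadjusted p = 0.0505). Without siUPF1 replicate 2 the log2 difference was -0.37. The host ZFAS1 was at 44.8 and 44.4 FPKM in siControl and 46.7 and 48.9 in siUPF1, higher in both libraries.

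GNL3, the gene of the nucleolar protein nucleostemin, held 1 member that rose and 1 that fell at an unadjusted p under 0.05. Neither call was made with the spread of small RNA entries. SNORD19C was at 1.95 and 2.41 FPKM in siControl, 0.761 and 1.13 in siUPF1, 0.918 and 1.37 in MYC and 2.43 and 1.46 in MYC-UPF1, and fell by 0.71 in depletion (SE 0.13, adjusted p = 0.079, limma). SNORD19B was at 2.93 and 3.22 FPKM in siControl and 4.97 and 4.67 in siUPF1 and rose by 0.51 (SE 0.10, adjusted p = 0.079, limma). SNORD19 and SNORD69 had overlapping groups, and GNL3 differed by -0.09 (adjusted p = 0.57, limma).

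Of the rises, SNORD14A of RPS13 had the tightest replicates, at 8.13 and 8.35 FPKM in siControl, 12.1 and 12.7 in siUPF1, 5.92 and 6.18 in MYC and 5.33 and 7.13 in MYC-UPF1. It rose by 0.54 (SE 0.09, unadjusted p = 0.000557, adjusted p = 0.073, limma), while SNORD14B, in the same host, was at 7.08 and 8.06 FPKM and then 5.74 and 7.34. RPS13 itself fell, from 448 and 438 FPKM to 387 and 320 (log2 difference -0.33, unadjusted p = 0.0242, adjusted p = 0.18, limma). SNORA2A of KANSL2 was at 0.461 and 0.0693 FPKM in siControl and 1.12 and 0.922 in siUPF1, and rose by 0.69 (SE 0.16, adjusted p = 0.097, limma). SNORA23 of IPO7, at 0.385 and 0.379 FPKM and then 0.959 and 1.15, rose by 0.57 (SE 0.10, adjusted p = 0.079, limma). Their siControl means were under 0.5 FPKM, so both entered the test through the siUPF1 libraries where they were high, and their rises are given as values and not as support. The same holds for 7 tested members in depletion, of which SNORA2A, SNORA23 and SNORD131 were called. SNORD58A of RPL17, at 2.14 and 2.97 FPKM and then 5.49 and 3.21, rose by 0.57, a value that became 0.26 without siUPF1 replicate 1 and 0.88 without siUPF1 replicate 2, and a call lost without siControl replicate 1 (unadjusted p = 0.0566 in limma). SNORD125 of AP1B1, at 2.55 and 2.08 FPKM and then 3.61 and 3.89, rose by 0.52. With the spread of small RNA entries, SNORD19C, SNORD75, SNORD29, SNORA23, SNORD58A and SNORD125 lost their calls, at p from 0.0511 to 0.112.

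GAS5 carried the most members, 11, and 10 of them had a negative log2 difference in depletion. SNORD47, SNORD74, SNORD75 and SNORD81 fell and none rose, where 5.51% of all genes tested fell and 16.0% rose. In 8 of 11 both siUPF1 libraries lay below both controls, against 18.5% of all genes. SNORD81 was at 36.0 and 37.3 FPKM in siControl and 26.1 and 26.8 in siUPF1 (log2 difference -0.46, SE 0.09, adjusted p = 0.082, limma). SNORD75 was at 2.48 and 2.78 FPKM and then 1.23 and 1.77, and fell by 0.55 (SE 0.13, adjusted p = 0.10, limma). That call was lost with the spread of small RNA entries (unadjusted p = 0.112, limma). SNORD47 fell by 0.44 (SE 0.14, unadjusted p = 0.0193, limma), a call lost without siControl replicate 2 (log2 difference -0.26, unadjusted p = 0.181 in limma). SNORD78 was the exception, at 11.8 and 12.3 FPKM in siControl and 13.2 and 12.9 in siUPF1. The host gene GAS5 was at 153 and 157 FPKM in siControl and 169 and 153 in siUPF1 (log2 difference 0.06, adjusted p = 0.75, limma). These 11 share 1 host and are not separate replicates of the effect. For SNORD47 and SNORD79, whose values are given above, both siControl libraries were the highest of all 8, and siUPF1 overlapped MYC and MYC-UPF1. For SNORD80 siControl was also highest, and siUPF1 overlapped MYC-UPF1 but lay below both MYC libraries. Whether the siControl or the siUPF1 libraries stood apart was not tested.

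Other hosts also held several members. In TAF1D, 3 of 8 fell (SNORA1, SNORA8 and SNORA18) and 7 of 8 differences were negative, with TAF1D at -0.07. In SNHG29, SNORD49B and SNORD65 fell of 3, in RPS12 SNORD100 and SNORA33 fell of 3, and in SNHG1 SNORD29 and SNORD31 fell of 7. The call of SNORD29 was lost without siControl replicate 2 (unadjusted p = 0.205 in limma). In SNHG17, SNORA71A rose and all 3 differences were positive. In EIF4A2, RPL3, RPL4 and NOP56, with 4 or 5 members each, none passed the test. At an unadjusted p under 0.05, 5.51% of all genes tested fell and 16.0% rose. With the spread of small RNA entries, SNORA8 alone of the members named in this paragraph was called.

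**Figure D3:**
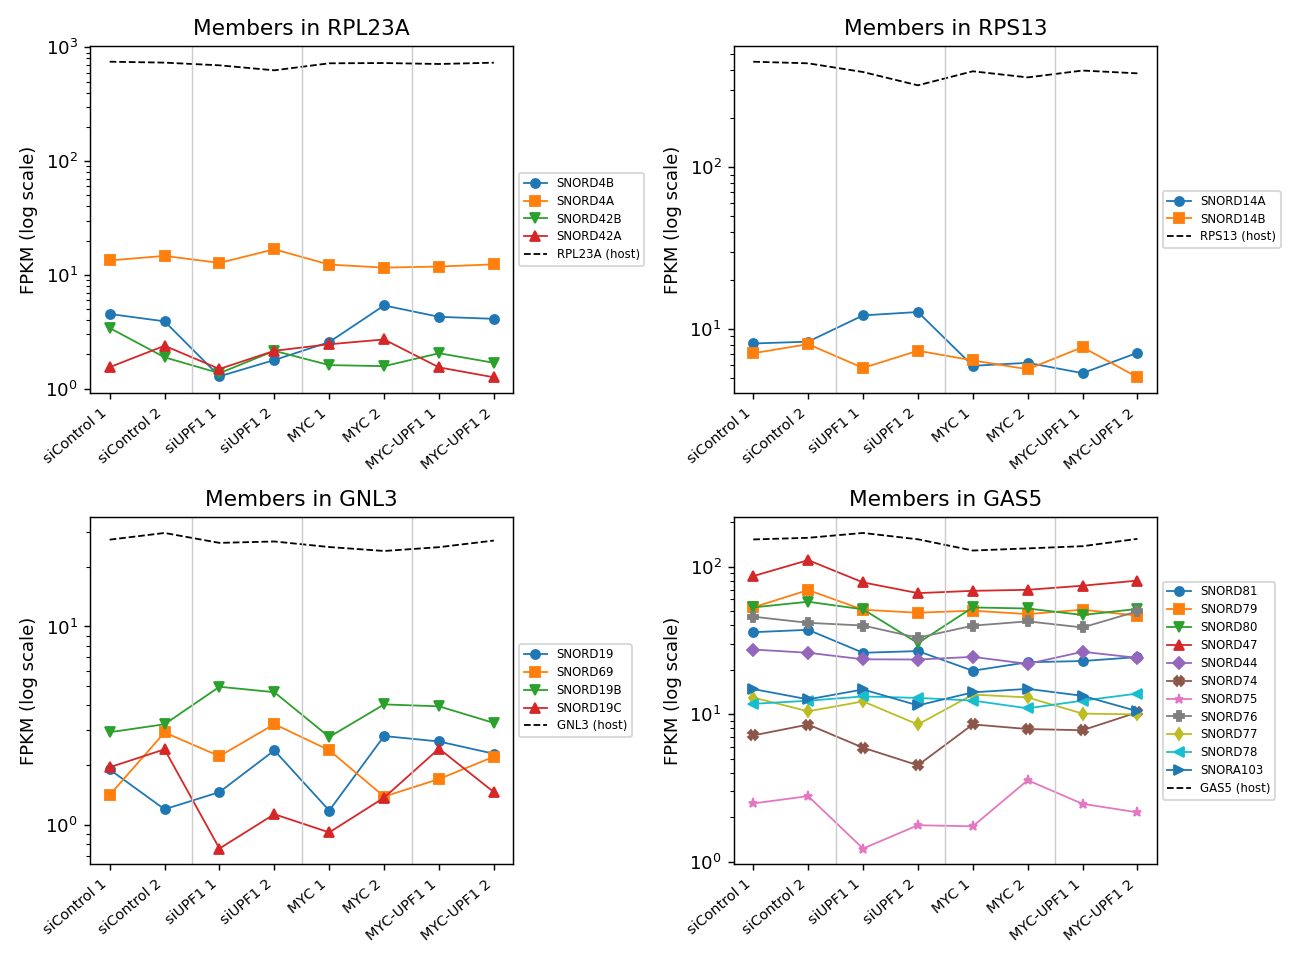
FPKM on a log axis (y) of each member (symbols) and of its host gene (dashed) in the 8 libraries (x), for the members in RPL23A, RPS13, GNL3 and GAS5. Relative to siControl, SNORD4B and SNORD19C drop and SNORD14A and SNORD19B climb in both siUPF1 libraries. Most GAS5 members are lower in siUPF1 than in siControl while GAS5 is not.

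Over all pairs, the change of a member and that of its host were weakly related. Across 219 member and host pairs in depletion, the log2 differences correlated with r = 0.06, and 56.2% had the same sign. Of 44 members with a host in the table that were called, 2 had a host that was called too. Of the 117 hosts, 18 were called, where 21.5% of all genes tested were. In overexpression r was 0.25 over 211 pairs and 63.5% had the same sign. None of the 112 hosts was called there, where 1.43% of all genes tested were. Host changes were narrow, from -0.51 to 0.35 in depletion and from -0.28 to 0.23 in overexpression, against -1.05 to 0.69 and -0.80 to 0.58 for members. The pairs share hosts and libraries, and members varied more between replicates than other genes did. The part of that spread in the members' wider range and in r was not tested.

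**Figure D4:**
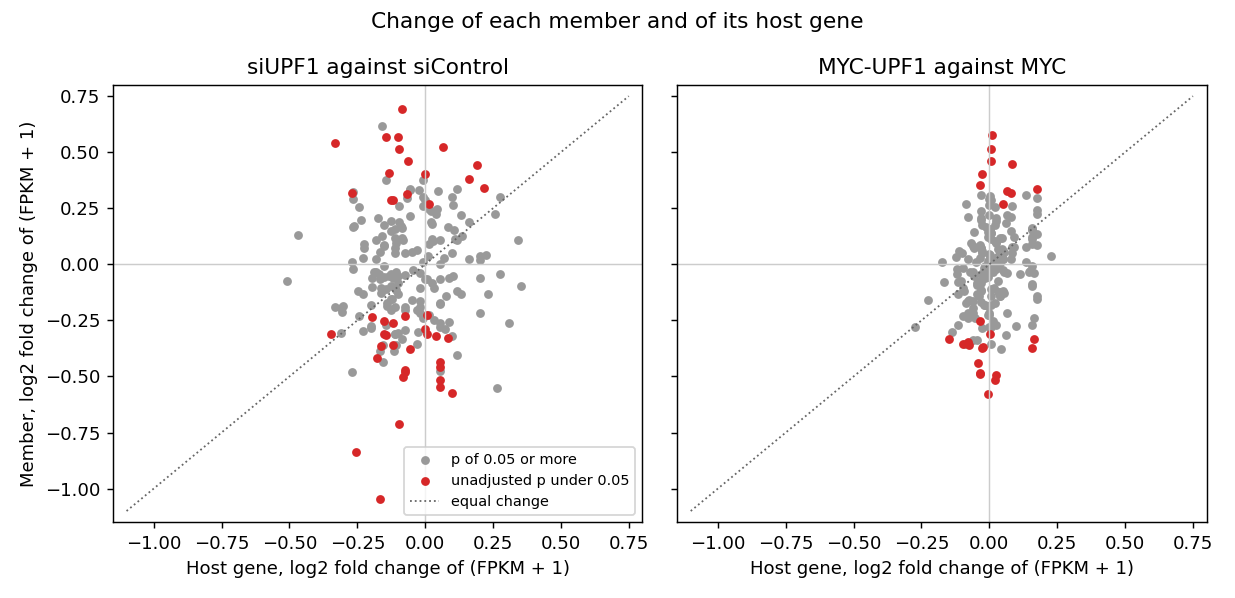
Log2 fold change of FPKM + 1 of each member (y) against that of its host gene (x), 1 point per member, in red where the member had an unadjusted p under 0.05, with the dotted line marking equal change. The points spread vertically, and r is 0.06 in depletion (219 pairs) and 0.25 in overexpression (211 pairs).

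With overexpression of UPF1, 217 members were tested. At an unadjusted p under 0.05, 10 rose (4.61%, against 0.619% of the 13251 genes tested) and 18 fell (8.29%, against 0.807% of all genes). No member passed an adjusted p of 0.05, which 0.00755% of genes did. Some other fits gave adjusted calls, 2 with the replicate block and 6 with crossed pairing. So did the fits without MYC replicate 2 and without either MYC-UPF1 replicate. The share of all genes passing an adjusted p in these fits is not given here, so these calls are no result about the members. Without MYC replicate 1 the calls at an unadjusted p numbered 49 (22.6%, against 5.87% of all genes in that fit), and without MYC-UPF1 replicate 1 they numbered 47 (21.7%, against 3.55%). With the spread taken from small RNA entries alone, 3 rose (SNORD49A, SNORD58C and SNORA63E) and 3 fell (RMRP, SNORD42A and SNORD77) at an unadjusted p under 0.05, and none at an adjusted one. These 6 are 2.76% of the members, against 2.39% of all 376 entries in that fit. SNORA63E entered the test through the MYC-UPF1 libraries, where it was high, so its rise is a value only. Both MYC-UPF1 libraries lay above both MYC libraries in 32 members (14.7%, against 8.88% of all genes) and below them in 39 (18.0%, against 11.8%). The median log2 fold change of members was -0.02 and that of all genes -0.01. In class, 5 of 132 SNORD members rose and 8 fell, 5 of 75 SNORA members rose and 9 fell, and none of 8 scaRNAs was called. By host, 1 of 55 members in ribosomal protein genes rose and 5 fell, 7 of 103 in other protein-coding genes rose and 9 fell, and 2 of 56 in non-coding genes rose and 3 fell. In GAS5 SNORD77 alone was called, at 13.6 and 13.0 FPKM in MYC and 10.1 and 9.97 in MYC-UPF1, and fell by 0.37 on the log2 scale (SE 0.10, unadjusted p = 0.00562, adjusted p = 1.00, limma).

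Beside RMRP, the largest falls were SNORD42A, SNORD7, SNORA21B and SNORD131. SNORD42A, another of the box C/D RNAs of RPL23A named above, was at 2.46 and 2.71 FPKM in MYC and 1.54 and 1.26 in MYC-UPF1. In siControl it was at 1.55 and 2.38 FPKM. It fell by 0.58 (SE 0.12, unadjusted p = 0.000889, adjusted p = 0.79, limma), and its values in MYC-UPF1 were near those of siControl replicate 1. SNORD4B of that host was at 2.57 and 5.39 FPKM in MYC and 4.28 and 4.11 in MYC-UPF1, with overlapping groups. SNORA21B of RPL23, at 2.21 and 2.04 FPKM in MYC and 1.33 and 1.11 in MYC-UPF1, fell by 0.49 (SE 0.12, unadjusted p = 0.00196, adjusted p = 1.00, limma). SNORD7 was at 1.01 and 1.65 FPKM and then 0.858 and 0.4, and SNORD131 at 0.598 and 1.3 FPKM and then 0.306 and 0.434. The calls of SNORD7 and SNORD131 were lost without MYC replicate 2 (unadjusted p = 0.0736 and 0.103 in limma), and that of SNORD7 also without MYC-UPF1 replicate 2 (unadjusted p = 0.0525). For SNORD7 (log2 difference -0.52) the value was -0.31 in both of these fits. For SNORD131 (-0.49) it was -0.22 without MYC replicate 2 and -0.75 without MYC replicate 1, and its MYC-UPF1 mean was under 0.5 FPKM, so it entered the test through the MYC libraries.

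The largest rises were SNORA63E, SNORD58C, SNORD14E, SNORD19C and SNORA53. SNORA63E was at 0.428 and 0.416 FPKM in MYC and 1.40 and 0.874 in MYC-UPF1, but at 0.895 and 2.35 in siControl. It rose by 0.58 (SE 0.13, unadjusted p = 0.00134, adjusted p = 0.94, limma), a call lost when all 8 libraries shared 1 fit (unadjusted p = 0.0779). SNORD58C of RPL17 was at 4.89 and 5.83 FPKM in MYC and 8.89 and 7.29 in MYC-UPF1, and rose by 0.51 (SE 0.14, unadjusted p = 0.00422, adjusted p = 1.00, limma). SNORD14E of HSPA8 was at 2.92 and 2.56 FPKM and then 3.97 and 4.30, and rose by 0.46 (SE 0.12, unadjusted p = 0.00464, limma). SNORD19C was at 0.918 and 1.37 FPKM and then 2.43 and 1.46, and its call was lost without MYC replicate 1 (unadjusted p = 0.148 in limma) or MYC-UPF1 replicate 1 (unadjusted p = 0.201). Its log2 difference of 0.45 became 0.29 and 0.21 in those fits and 0.68 without MYC-UPF1 replicate 2. SNORA53 of SLC25A3, at 0.329 and 0.816 FPKM and then 1.2 and 0.915, lost its call without MYC replicate 1 (unadjusted p = 0.257), where its log2 difference of 0.40 became 0.18, and it was 0.63 without MYC replicate 2. The MYC mean of SNORA63E was under 0.5 FPKM, as was that of SNORD67, also called, so SNORA63E entered the test through MYC-UPF1, where it was high, and its rise is given as a value only. With the spread of small RNA entries, SNORD19C, SNORD14E, SNORA53, SNORD7, SNORA21B and SNORD131 lost their calls, at unadjusted p from 0.0556 to 0.156 (limma).

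In both comparisons 6 members were called, which is 13.0% of the 46 called in depletion and 21.4% of the 28 called in overexpression. These shares are near the 12.9% and 20.3% of tested members called in overexpression and in depletion, so the overlap is no result about these members, and with the spread of small RNA entries none was called in both. SNORD19C and SNORA8 fell in depletion and rose in overexpression, SNORD131, SNORA47 and SNORA11F did the reverse, and SNORA73B fell in both. SNORD131 had a siControl mean of 0.493 and a MYC-UPF1 mean of 0.370 FPKM, under the test's minimum. It therefore entered each test through the group where it was high, and both its changes are values only. SNORA8 of TAF1D was at 8.77 and 9.65 FPKM in siControl, 6.13 and 6.61 in siUPF1, 6.35 and 5.37 in MYC and 7.63 and 7.62 in MYC-UPF1. SNORA73B of RCC1 was at 11.0 and 11.2 FPKM in siControl, 8.19 and 9.11 in siUPF1, 8.44 and 8.76 in MYC and 6.92 and 6.21 in MYC-UPF1. SNORA47 of ZBED3 was at 0.592 and 0.666 FPKM in siControl, 0.904 and 1.07 in siUPF1, 1.14 and 1.55 in MYC and 0.898 and 0.476 in MYC-UPF1. In none of the 6 did either comparison pass an adjusted p of 0.05, and whether the comparisons differ was not tested.

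Genes of the proteins that bind these RNAs are set against 21.5% of all genes called in depletion and 1.43% in overexpression. None of the 11 genes of box C/D proteins and assembly factors passed an unadjusted p of 0.05 in either comparison, FBL, the methyltransferase, being at 99.0 and 103 FPKM in siControl and 97.7 and 124 in siUPF1. Among 8 genes of H/ACA proteins and their assembly, GAR1 alone passed in depletion. It was at 14 and 18.3 FPKM in siControl, 9.63 and 8.52 in siUPF1, 11.5 and 11.8 in MYC and 10.3 and 11.1 in MYC-UPF1, and fell by 0.76 (unadjusted p = 0.000978, limma). DKC1, the pseudouridine synthase, was at 58.6 and 57.2 FPKM in siControl and 56.4 and 56.7 in siUPF1. Among 11 genes of RNase MRP and P proteins, RPP40 alone passed, at 4.90 and 4.40 FPKM in siControl and 3.56 and 2.32 in siUPF1, and fell by 0.54 (unadjusted p = 0.0108, limma). None of these lists had a gene past the threshold in overexpression.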

How the data were processed

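Stranded mRNA libraries of Huh7 cells were read as pairs. The authors removed adapters and low-quality reads, aligned to hg19 and assembled transcripts against NCBI annotation, and the deposited values are FPKM per gene and library. The submitters' processing notes name Trimmomatic 0.38, FastQC 0.11.7, HISAT2 2.1.0 and StringTie 1.3.4d. The tables and the single-library files held the same values, with 0 differences, and 0 table columns were left unused.

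Each treated group was compared with its control in limma 3.58.1 (R 4.3.3, lmFit and eBayes with a trend) on log2(FPKM + 1), over genes with a mean of at least 0.5 FPKM in the 4 libraries, with Benjamini-Hochberg adjustment over all genes tested. Fold changes on this scale understate those of low genes. A threshold of 0.05 was used for unadjusted and for adjusted p. An exact permutation test of 2 libraries against 2 cannot go below 0.333, so the p-values rest on variance shared across genes. FPKM holds no read number, so no counting error is given.

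The members and lists were chosen with earlier results of these data known. Genes named were RMRP, RPPH1, SNORD4B and SNORD3A, the 5 highest members, those next to the limit and, in each comparison, up to 5 largest rises and falls with p under 0.05 and groups that did not overlap. Others were named after their values were seen. Hosts came from RefSeq spans on GRCh38.p14, without strand. Members were placed on GRCh37 with GENCODE 44 where symbol, length (within 15 bases) and host matched, and sequences were read from that genome. Alternatives are given in the closing section. Tables were read in Python 3.11.15 (pandas 2.3.3) and plots made with matplotlib 3.10.9.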

Additional observations from a re-analysis of the deposited data

How the results depend on the processing

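With 2 libraries per group, the counts of members called moved with the fit, and the members' median fold change ranged from -0.11 (quantile normalization) to -0.0067 (without siUPF1 replicate 1) in depletion and from -0.052 to 0.0069 in overexpression, where its sign turned with a minimum of 5 FPKM. Taking the spread from small RNA entries alone, an alternative chosen after seeing the data, left 10 members called in depletion (2 higher, 8 lower) and 6 in overexpression (3 higher, 3 lower). A minimum of 5 FPKM left 20 called in depletion (2 higher, 18 lower) of 96 tested and 8 in overexpression (3 higher, 5 lower) of 90 tested. These are 20.8% and 8.89% of the members tested, against 23.6% and 0.645% of all genes in those fits. Quantile normalization gave 10 higher and 40 lower in depletion, and median centring 12 and 33, against 18 and 28. In those 2 fits 22.0% and 19.8% of members were called, against 20.9% and 21.2% of all genes. As each library was left out, depletion gave 57 to 124 called (28 to 64 higher, 29 to 67 lower), the most without siUPF1 replicate 1, and overexpression 33 to 49 (13 to 24 higher, 16 to 36 lower), the most without MYC replicate 1. The cause was not tested, and in these fits the lone library of a group is assumed to vary like the other group. Of 12 named calls in depletion, 6 were lost with the spread of small RNA entries, and of 10 in overexpression, 6.

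The replicate numbers did not pair the libraries (correlation of deviations -0.13 in depletion and -0.57 in overexpression). With the replicate block, 55 members were called in depletion (24.2%, against 19.1% of all genes) and 24 in overexpression (11.1%, against 1.28%). With the crossed pairing, added after seeing the data, 67 were called in depletion (27 higher, 40 lower) and 75 in overexpression (29 higher, 46 lower). These are 29.5% and 34.6% of members against 22.9% and 9.26% of all genes.

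Values not called in the fits reported turned direction, some of them with a call, as for RMRP and RPPH1 in depletion without either siControl library. In depletion, as each library was left out, RMRP ran from -0.67 to 2.04, RPPH1 from -1.04 to 1.23, SNORD3A from -0.24 to 1.33 and SNORD22 from -0.16 to 0.34. In overexpression SNORD79 was 0.039 under quantile normalization and 0.0018 under median centring. As each library was left out there, SNORD4B ran from -0.30 to 0.54 (unadjusted p = 0.00658, limma, without MYC replicate 2), RPPH1 from -0.15 to 0.29, SNORD79 from -0.072 to 0.060 and SNORD29 from -0.028 to 0.037. The removal of trends with GC content and length is void for the members, because 74.9% of them, under the 80% needed, have a transcript sequence with a value. The p-values measure the spread between 2 libraries of unknown depth.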
